A study of Mus musculus with 12 samples.

Results

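The 9 genes described here encode transcription factors that neurons switch on quickly when they are active. They are the 4 Egr genes (Egr1, Egr2, Egr3 and Egr4), the 3 Nr4a genes (Nr4a1, Nr4a2 and Nr4a3), Npas4 and Klf4, and they were chosen by name among the 41388 genes of the count table. Their RNA was measured by RNA sequencing in the prefrontal cortex (PFC; named as the medial part in the labels) of male Swiss Webster mice aged 10 weeks. Conventional mice (CON) carried a normal microbiota, germ-free mice (GF) had none from birth, and exGF mice were born germ-free and colonized from postnatal day 21, after weaning, beside conventional animals. Per the study, GF mice were kept in isolators, as were exGF mice until that day, and CON mice lived in the standard animal unit. Microbiota and housing thus differ together between the groups and cannot be told apart in the comparisons below. Each group had 4 libraries, and each library was made from the pooled RNA of 2 to 3 animals, so every SD below is a spread between pools of whole tissue. The SE of a log2 fold change comes from the test of the counts, which takes in counting error as well. The labels name no engineered allele in any group. The 4 exGF libraries are called GFR1 to GFR4, as in the count table, because their columns could not be tied to numbered samples.

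In neurons, calcium entry through glutamate receptors and channels activates kinases that act on factors already bound to DNA, among them CREB at cyclic AMP response elements (CRE) and SRF with its Elk partners at CArG boxes. The genes below are read out within minutes to hours of that signal, and the proteins they encode bind further genes of the response. The EGR proteins are zinc-finger factors, and most of them are held in check by the corepressors NAB1 and NAB2; EGR2 is also the master regulator of myelination by Schwann cells in peripheral nerve. NR4A1, NR4A2 and NR4A3 are orphan nuclear receptors that act without a known natural ligand, and NR4A1 and NR4A2 can pair with retinoid X receptors. NPAS4 is a basic helix-loop-helix PAS protein that pairs with ARNT proteins and is known for its strict dependence on neuronal depolarization. KLF4 is a zinc-finger protein of the Krüppel-like family that is used by many cell types, among them neurons, endothelium and myeloid cells.

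Counts assigned to genes ran from 22757169 to 29134760 in CON, from 13280926 to 23465074 in GF and from 22702599 to 28615407 in exGF. The lowest total was that of GF replicate 1. The markers of cortical excitatory neurons were abundant in every library, with a summed level of 6908 to 8452 CPM (counts scaled to a common library size), and no marker of any cell type examined was at 0 in all libraries. The markers of several cell types differed between groups. The summed level of 7 mature oligodendrocyte markers was 2025 to 2505 CPM in CON, 3135 to 5286 CPM in GF and 2009 to 3380 CPM in exGF, and Mbp, Mog and Mobp, which encode myelin proteins, passed the test as higher in GF than in CON. The summed level of 7 meningeal markers was 878 to 1575 CPM in CON, 821 to 981 CPM in GF and 670 to 1052 CPM in exGF, and 1 of them (Col1a2) passed as lower in GF. The summed level of 6 microglial markers was 244 to 277 CPM in CON, 218 to 244 CPM in GF and 217 to 230 CPM in exGF, so that every GF and exGF library lay below every CON library, though 0 of the 6 passed the test in either comparison with CON (edgeR; 1 had an unadjusted p under 0.05 as lower in GF and 3 in exGF). In such tissue, more or fewer cells of a type and more or less RNA per cell cannot be told apart.

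The levels of the 9 genes were first set in order within each group, per kilobase of exon (RPKM, computed from the normalized counts). Egr1 was the highest in all 3 groups, at 60.1 ± 8.67 RPKM in CON (SD, n = 4), above 95.7% of 15936 genes that passed the filter and had an exon length. Nr4a1 followed with 25.2 ± 5.63 RPKM and Egr3 with 17.0 ± 1.78 RPKM, and the libraries of each of these 3 genes lay clear of those of the next in every group. Egr4 (7.24 ± 1.70 RPKM), Nr4a3 (5.84 ± 0.814 RPKM), Npas4 (5.56 ± 0.977 RPKM), Egr2 (3.74 ± 1.16 RPKM) and Nr4a2 (2.67 ± 0.225 RPKM) overlapped with their neighbours in this order. Klf4 was the lowest with 1.66 ± 0.222 RPKM, below every CON library of Nr4a2, but overlapped with it in GF and exGF. Each family was thus led by 1 member: Egr1 held 68.1% ± 2.41 of the summed Egr level in CON, 70.6% ± 0.935 in GF and 71.5% ± 4.39 in exGF, and Nr4a1 held 74.3% ± 4.04, 75.5% ± 1.86 and 78.4% ± 3.84 of the summed Nr4a level.

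**Figure D1:**
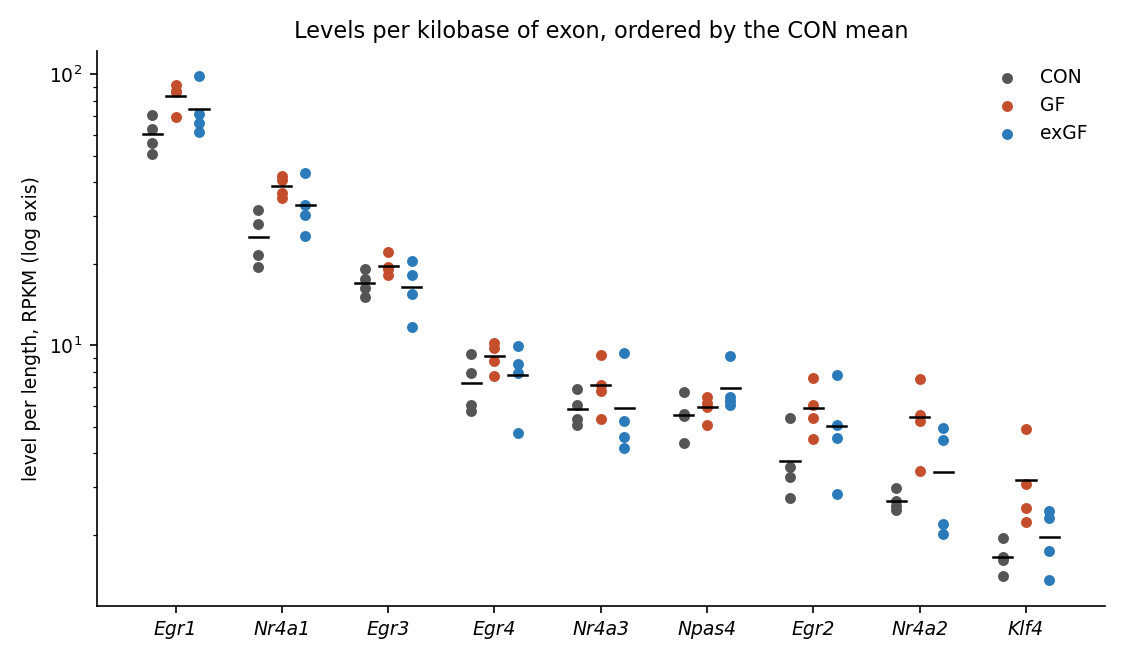
Level per kilobase of exon (RPKM, log axis) of the 9 genes in each library, ordered by the CON mean; points are libraries (4 per group) and bars are group means. Egr1, Nr4a1 and Egr3 stand apart from the others in all 3 groups, with CON means of 60.1, 25.2 and 17.0 RPKM.

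The DNA just before the transcription start was read for the genes that had an entry among the RefSeq promoters (build GRCm38.p6), which held 7 of the 9 (Egr2 with 5 starts) and 11 windows of 250 bases. Egr1 and Egr3 had no entry, so they were not searched for any of the letters below. The letters searched, on both strands, were TGACG (the core of a CRE), TGACGTCA (the complete CRE, which contains that core), the CArG box, GCGNGGGCG (the site of EGR proteins), AAAGGTCA (the site of NR4A proteins, called NBRE) and TATAAA (the TATA box). All 7 genes had at least 1 TGACG in a window, though the windows of the first and second starts of Egr2 had none. Of the 32851 promoters in the table, 17.8% held it, and this and the shares below are per promoter, not per gene. None had TGACGTCA (1.55% of all promoters) or AAAGGTCA (1.34%). Among the 7 genes searched, a CArG box (1.47% of all) was found before Egr2 alone, and GCGNGGGCG (4.70% of all) before Nr4a1, Nr4a2 and Klf4. TATAAA (12.4% of all) was found before Nr4a2 alone, on the strand opposite to the gene, at bases -164 to -159 from the start. Other spellings of the TATA box were not searched. The 4 windows below belong to genes whose values are set out next, and capitals mark the matches, read on either strand. The windows of Nr4a3 and Npas4 are not shown since 152 and 250 of their bases lie in an exon of the GENCODE annotation. Both genes are still counted among the 7.
Nr4a2, chr2:57124004-57124253, minus strand: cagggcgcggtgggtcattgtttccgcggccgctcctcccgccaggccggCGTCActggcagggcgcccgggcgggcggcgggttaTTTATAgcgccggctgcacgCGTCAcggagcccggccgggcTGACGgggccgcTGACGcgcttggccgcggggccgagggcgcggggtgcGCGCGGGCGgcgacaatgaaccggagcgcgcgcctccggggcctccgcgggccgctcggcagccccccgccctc
Nr4a1, chr15:101266596-101266845, plus strand: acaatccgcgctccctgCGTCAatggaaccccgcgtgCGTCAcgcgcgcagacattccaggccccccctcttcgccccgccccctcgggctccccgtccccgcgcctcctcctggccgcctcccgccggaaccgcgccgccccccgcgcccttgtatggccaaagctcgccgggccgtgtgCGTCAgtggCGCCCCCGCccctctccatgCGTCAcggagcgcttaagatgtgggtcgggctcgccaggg
Klf4, chr4:55532476-55532725, minus strand: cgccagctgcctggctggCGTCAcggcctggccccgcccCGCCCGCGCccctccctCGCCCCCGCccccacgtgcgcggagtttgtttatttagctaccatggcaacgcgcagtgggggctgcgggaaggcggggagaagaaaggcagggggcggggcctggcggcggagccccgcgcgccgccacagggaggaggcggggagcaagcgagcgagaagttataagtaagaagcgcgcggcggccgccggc
Egr2 (the third of its starts), chr10:67537619-67537868, plus strand: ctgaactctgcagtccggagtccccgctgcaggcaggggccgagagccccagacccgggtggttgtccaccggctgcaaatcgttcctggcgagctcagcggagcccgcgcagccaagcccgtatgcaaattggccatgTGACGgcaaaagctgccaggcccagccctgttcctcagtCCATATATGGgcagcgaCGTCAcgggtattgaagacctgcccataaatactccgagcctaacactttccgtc
The Nr4a2 window holds 4 TGACG cores, the opposite-strand TATAAA match between the pair farthest from the start, and 1 EGR site closest to the start. The Nr4a1 window also holds 4 cores, with its EGR site between the proximal pair. Klf4 has a single core beside 2 EGR sites, and Egr2 has its CArG box between 2 cores. These are matches of letters and no binding was measured.

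The comparison of GF with CON asks which genes differ in mice that never had a microbiota and were kept in isolators. All 9 genes had a higher fitted level in GF, and 1 of them, Nr4a2, passed the test at an adjusted p under 0.1 (quasi-likelihood test in edgeR, p-values adjusted by the Benjamini-Hochberg method over 15542 genes). Of all genes tested, 0.116% passed as higher in GF. The median log2 fold change of the 9 genes was 0.47, against 0.0069 over all genes tested. An unadjusted p under 0.05 with a higher level in GF was reached by 7 of the 9 genes (4.75% of all genes), and 3 of the 9 had every GF library above every CON library (2.53% of all genes). Nr4a2, Klf4, Nr4a1 and Egr1 stand in the list of activity-induced genes that the study drew from these same libraries as higher in GF, so that their direction here is not independent evidence. The study tested pairs of groups with DESeq2 rather than edgeR, and DESeq2 on the 2 groups called these same 4 genes here.

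Among the nuclear receptors, Nr4a2 (NURR1, known for its part in dopamine neurons and as a marker of claustrum and deep cortical neurons; GRCm38 chromosome 2, 57106830 to 57124003, minus strand) had 12.1, 10.4, 10.8 and 10.1 CPM in the CON libraries and 30.6, 14.0, 22.6 and 21.4 CPM in the GF libraries. The CON libraries lay close together, all GF libraries were above them, and GF replicate 1 was the highest while GF replicate 2 came nearest to CON. Nr4a2 rose 2.02-fold (log2 fold change 1.02, SE 0.18, adjusted p = 0.0384, edgeR). It lost its call without CON replicate 3 (adjusted p = 0.134) and without GF replicate 3 (adjusted p = 0.118), with log2 fold changes of 1.02 and 1.01, and in the fits of all 12 libraries by edgeR (adjusted p = 0.191) and by DESeq2 (adjusted p = 0.142). Nr4a1 (NUR77, chromosome 15, 101254269 to 101274795, plus strand) had 111, 68.4, 76.0 and 98.2 CPM in CON and 128, 123, 148 and 143 CPM in GF. Here too every GF library was above every CON library, but the CON libraries were spread, and the log2 fold change of 0.62 (SE 0.13) had an adjusted p of 0.125 (edgeR). Without CON replicate 1, the highest of the CON libraries, it was 0.75 with an adjusted p of 0.0392. Nr4a3 (NOR1, chromosome 4, 48045153 to 48086447, plus strand) had 30.5 to 41.3 CPM in CON and 32.2 to 55.0 CPM in GF, which overlapped, with a log2 difference of 0.29 (SE 0.14, adjusted p = 0.606), which was 0.14 without GF replicate 4. The summed level of the 3 receptors was 33.7 ± 5.87 RPKM in CON and 51.2 ± 4.50 RPKM in GF (SD, n = 4), most of it Nr4a1.

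Among the zinc-finger genes, Egr1, the most widely used marker of recent neuronal activity in this family (chromosome 18, 34859823 to 34864984, plus strand), had 316, 228, 250 and 283 CPM in CON and 312, 385, 390 and 409 CPM in GF. All GF libraries but replicate 1 were above all CON libraries, and CON replicate 1 was the highest of its group. The log2 difference was 0.47 (SE 0.11, adjusted p = 0.144, edgeR), and the call was made without CON replicate 1 (adjusted p = 0.0797) or without GF replicate 1 (adjusted p = 0.0697). Egr2 (chromosome 10, 67535475 to 67542188, plus strand) had 18.3, 12.1, 9.27 and 11.1 CPM in CON and 15.4, 20.5, 18.4 and 25.7 CPM in GF. CON replicate 1 again lay within the range of GF, and the other CON libraries lay below it. The log2 difference of Egr2 was 0.66 (SE 0.20, adjusted p = 0.298), and 0.89 without CON replicate 1 (adjusted p = 0.0674, edgeR). Egr4 (chromosome 6, 85511121 to 85513589, minus strand) had 12.3 to 20.1 CPM in CON and 16.6 to 21.9 CPM in GF, with a log2 difference of 0.34 (SE 0.15, adjusted p = 0.568). Egr3 (chromosome 14, 70077203 to 70082614, plus strand), a factor known for its part in memory and in muscle spindles, had 66.3 to 84.5 CPM in CON and 79.9 to 97.1 CPM in GF, with a log2 difference of 0.21 (SE 0.095, adjusted p = 0.565). For both genes the groups overlapped, and 2 of the 4 GF libraries were above all CON libraries.

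Klf4 (chromosome 4, 55527143 to 55532466, minus strand) had the second highest fold change and the lowest level of the 9 genes. Its CON libraries had 5.95, 5.07, 4.94 and 4.30 CPM and its GF libraries 7.66, 6.80, 15.0 and 9.41 CPM. All GF libraries were above all CON libraries, and GF replicate 3 was well above the other 3. The log2 difference was 0.94 (SE 0.22, adjusted p = 0.154, edgeR), and 0.65 without GF replicate 3 (adjusted p = 0.390). Npas4 (chromosome 19, 4984355 to 4990316, minus strand) was the gene with the smallest difference. It had 28.0, 22.7, 23.2 and 18.1 CPM in CON and 21.1, 24.6, 25.4 and 26.6 CPM in GF, and no GF library was above the highest CON library. Its log2 difference was 0.09 (SE 0.13, adjusted p = 0.885), and its sign turned to -0.0083 without CON replicate 4.

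**Figure D2:**
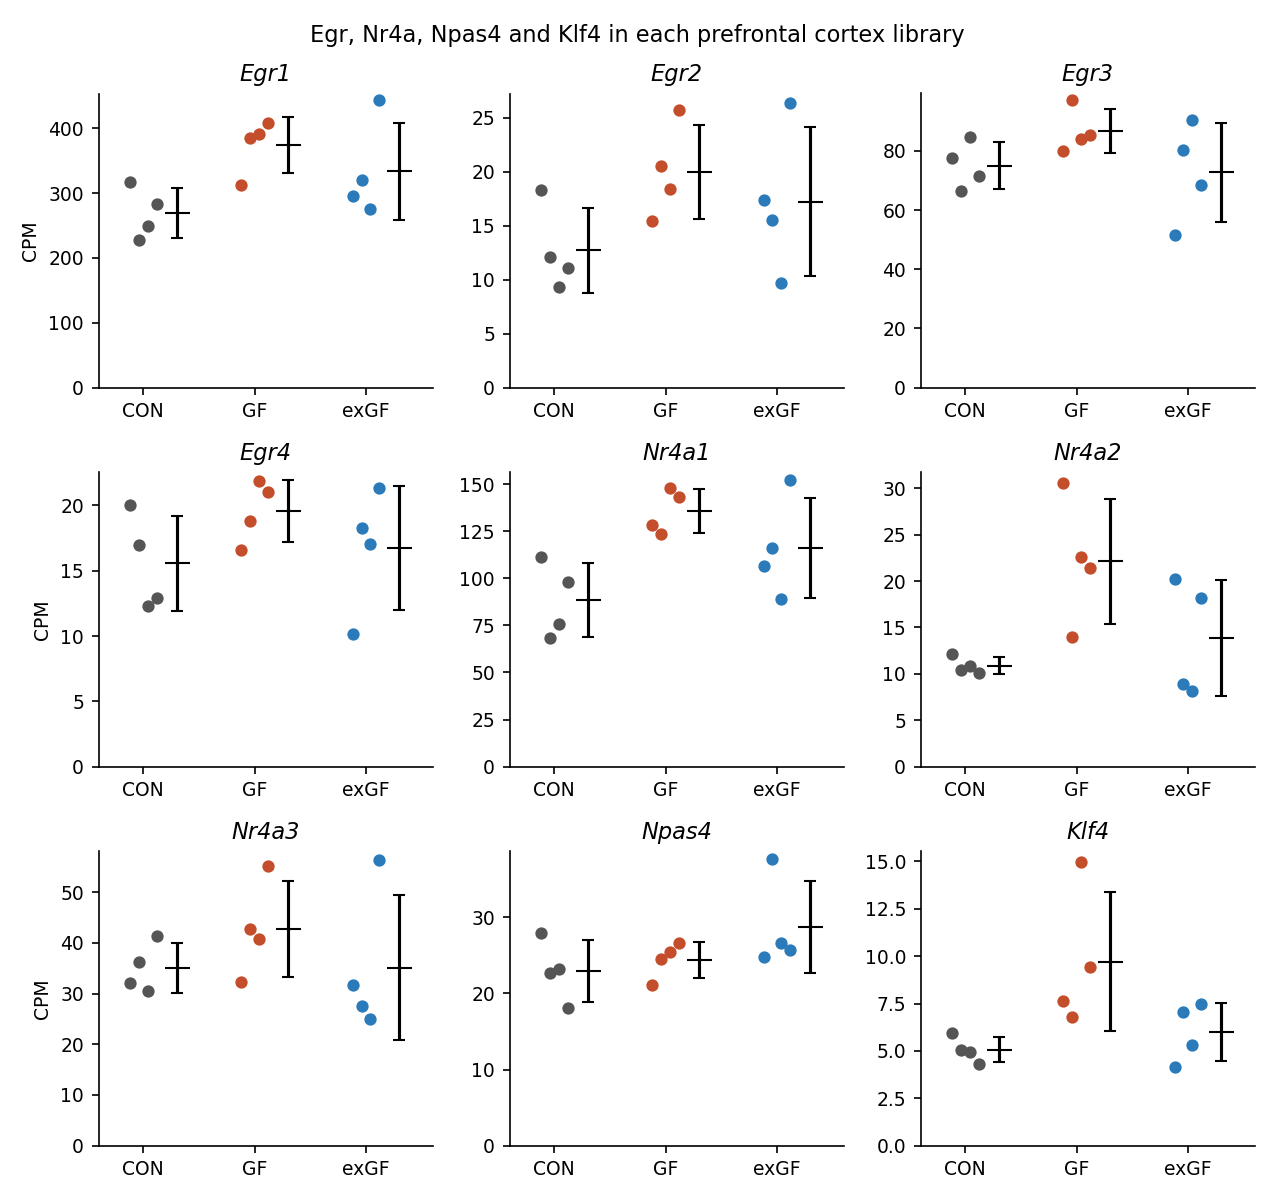
CPM of each gene in every library (points, 4 per group) with the group mean and SD (black bars); each panel starts at 0 and has its own scale. All GF points lie above all CON points for Nr4a1, Nr4a2 and Klf4, and Npas4 overlaps fully.

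**Figure D3:**
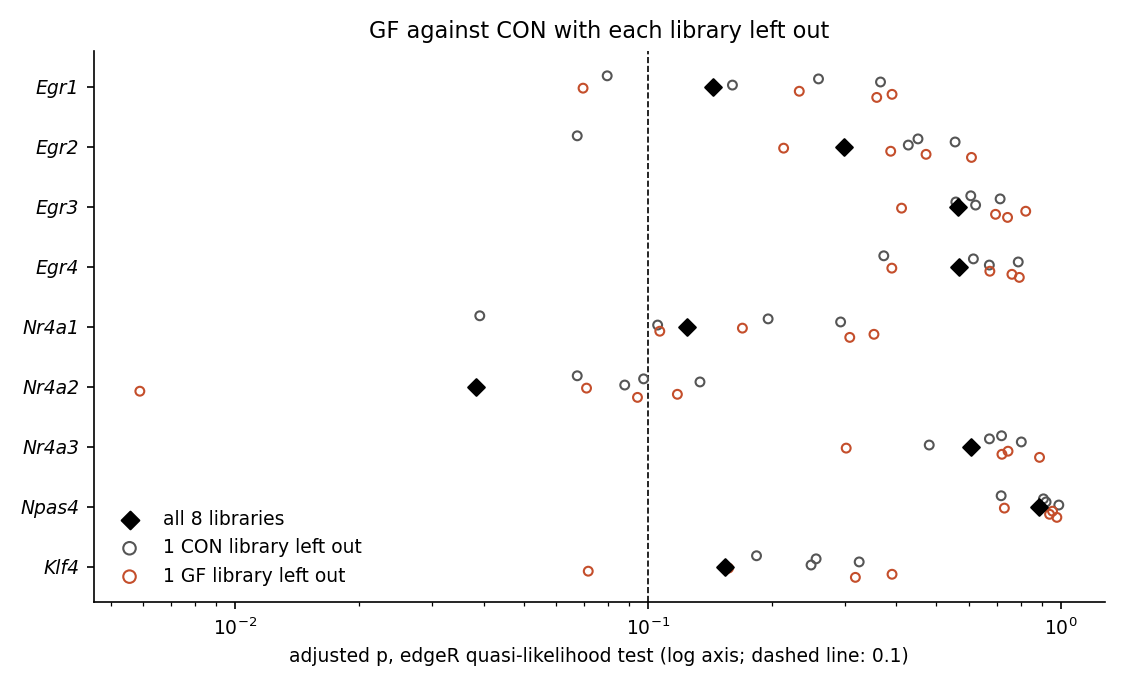
Adjusted p (log axis, edgeR quasi-likelihood test) for GF against CON with all 8 libraries (diamonds) and with each CON or GF library left out (open circles); the dashed line is the threshold of 0.1. Nr4a2 is below the line in 6 of 8 leave-outs, Egr1 in 2, and Egr2, Nr4a1 and Klf4 in 1 each.

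The oligodendrocyte markers differed between GF and CON in the same direction as the 9 genes. Their summed level was 3832, 3135, 5286 and 3957 CPM in GF replicates 1 to 4, so that GF replicate 3 was the highest and GF replicate 2 the lowest. GF replicate 3 was also the highest GF library for Klf4 and GF replicate 2 the lowest for Klf4 and Nr4a2, whereas GF replicate 1, the highest for Nr4a2, was the third of the 4 for the markers. In exGF it was 2938, 2176, 2009 and 3380 CPM in GFR1 to GFR4, and Nr4a2 was at 20.2, 8.89, 8.19 and 18.2 CPM in the same libraries. Both were thus high in GFR1 and GFR4 and low in GFR2 and GFR3. Klf4 did not follow this split: it was highest in GFR4 (7.45 CPM), next in GFR2 (7.04 CPM) and lowest in GFR1 (4.14 CPM). Markers of claustrum and deep-layer neurons, where Nr4a2 is found, had a summed level of 163 to 178 CPM in CON, 174 to 200 CPM in GF and 145 to 186 CPM in exGF. Of these 7 genes, 0 passed the test in GF against CON (1 at an unadjusted p under 0.05). In GFR1 to GFR4 their sum was 186, 149, 145 and 166 CPM, the same order of libraries as for Nr4a2. In GF replicates 1 to 4 it was 175, 200, 174 and 185 CPM, so that the lowest GF library for Nr4a2, replicate 2, was the highest for these markers. Striatal markers, which mark tissue beside the PFC, were at 141 to 299 CPM in CON, 162 to 180 CPM in GF and 140 to 290 CPM in exGF. The upper ends were single libraries: CON replicate 2 had 299 CPM and the next CON library 157 CPM, and GFR4 had 290 CPM and the next exGF library 181 CPM. GFR4 was also the highest exGF library for several of the 9 genes, as given below, whereas CON replicate 2 was the lowest CON library for Egr1 and Nr4a1. The part of these cell types, and of microglia and meninges, in the differences of the 9 genes was not tested.

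The comparison of exGF with CON asks whether mice colonized after weaning still differ from conventional mice, and it uses the same CON libraries as the comparison above. Of the 9 genes, 0 passed the test by edgeR, and 0 did by DESeq2 or limma-voom (higher in exGF at an adjusted p under 0.1: 0.0253% of 15813 genes). Their log2 differences ran from -0.05 for Egr3 to 0.44 for Egr2 with a median of 0.30 (all genes: -0.0065), and 8 of 9 were above 0. An unadjusted p under 0.05 was reached by Nr4a1 alone (2.46% of all genes), and 0 of the 9 had every exGF library above every CON library (1.78% of all genes).

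The exGF libraries were spread more widely than the CON libraries for all 9 genes in SD of CPM as a percentage of the mean, from 22.9% against 22.3% for Nr4a1 to 44.8% against 8.40% for Nr4a2. GFR4 was the highest exGF library for Egr1, Egr2, Egr4, Nr4a1, Nr4a3 and Klf4. Nr4a1 had 107, 116, 88.8 and 152 CPM in GFR1 to GFR4 (log2 difference from CON 0.38, SE 0.17, adjusted p = 0.912). Egr1 had 296, 320, 275 and 443 CPM (0.30, SE 0.14, adjusted p = 0.924). GFR4 was thus above every GF library for both genes, and the other 3 exGF libraries lay below the GF mean. Without GFR4, the log2 difference of Nr4a1 was 0.24, that of Egr1 0.15 and the median over the 9 genes 0.15, with 6 of 9 above 0. The median was also lower without GFR2 (0.17), but higher without CON replicate 1 (0.40), GFR1 (0.37) or GFR3 (0.35). Nr4a1 was at 0.52 without CON replicate 1.

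Egr2 had 17.4, 15.5, 9.64 and 26.3 CPM in GFR1 to GFR4, a range wider than those of CON and GF, and a log2 difference from CON of 0.44 (SE 0.27), which was 0.17 without GFR4 and 0.67 without CON replicate 1. Nr4a2 split into a higher and a lower pair of libraries, as given above, with a log2 difference of 0.34 (SE 0.25, adjusted p = 0.966, edgeR). It was 0.12 without GFR1, 0.20 without GFR4 and 0.53 without GFR3. Nr4a3 had 31.6, 27.6, 25.0 and 56.2 CPM, with a log2 difference of 0.0010 (SE 0.21), and -0.31 without GFR4. Klf4 (4.14, 7.04, 5.33 and 7.45 CPM) differed by 0.24 (SE 0.19), with 0.39 without GFR1 and 0.13 without GFR4. Egr4 (10.2 to 21.4 CPM) differed by 0.10 (SE 0.21) and Egr3 (51.6 to 90.5 CPM) by -0.05 (SE 0.15), and the sign of both turned with the library left out. Npas4 had 24.8, 37.7, 26.7 and 25.7 CPM, so that GFR2 stood above all other libraries of the study. Its log2 difference from CON was 0.32 (SE 0.16, adjusted p = 0.940) and 0.17 without GFR2 (SE 0.13).

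GF and exGF were also compared directly, which asks what colonization after weaning changes together with the move out of the isolators. Again 0 of the 9 genes passed, as did 0% of the 15569 genes tested (edgeR), of which 1035 had an unadjusted p under 0.05. DESeq2 and limma-voom called 0 of the 9 genes as well. Klf4 (log2 difference 0.70, SE 0.25, adjusted p = 0.736) and Nr4a2 (0.66, SE 0.29, adjusted p = 0.739) reached an unadjusted p under 0.05 as higher in GF (3.35% of all genes), and for each 3 of the 4 GF libraries were above all exGF libraries. Klf4 was at 0.41 without GF replicate 3 (unadjusted p = 0.0786, edgeR). Nr4a2 had an unadjusted p of 0.0776 in the robust edgeR fit, 0.0839 by DESeq2 on the 2 groups and 0.0541 to 0.125 without GF replicate 1, 3 or 4 or without GFR2 or GFR3, with a lowest value of 0.47 without GF replicate 1. No gene of the 9 had all GF libraries above all exGF libraries (1.55% of all genes). Of the other genes, Nr4a3 differed by 0.28 (SE 0.23), Egr3 by 0.25 (SE 0.14), Nr4a1 by 0.23 (SE 0.14), Egr4 by 0.22 (SE 0.18), Egr2 by 0.22 (SE 0.24) and Egr1 by 0.16 (SE 0.14). Npas4 had a negative value, -0.23 (SE 0.14), which was -0.07 without GFR2. The median of the 9 genes was 0.23. Several of these values turned on single libraries. Without GFR4, 6 of the 9 genes had an unadjusted p under 0.05 and the median was 0.39, with 0.61 for Nr4a3, 0.39 for Nr4a1, 0.50 for Egr2, 0.37 for Egr4 and 0.33 for Egr1. Without GFR3 these values went the other way for Nr4a3 (0.15), Nr4a1 (0.12), Egr2 (0.018) and Egr1 (0.083), as did Egr3 (0.12) and Egr4 (0.050) without GFR1. Nr4a3 was also lower without GF replicate 4 (0.14) or GFR2 (0.18), and Egr2 without GF replicate 4 (0.075).

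**Figure D4:**
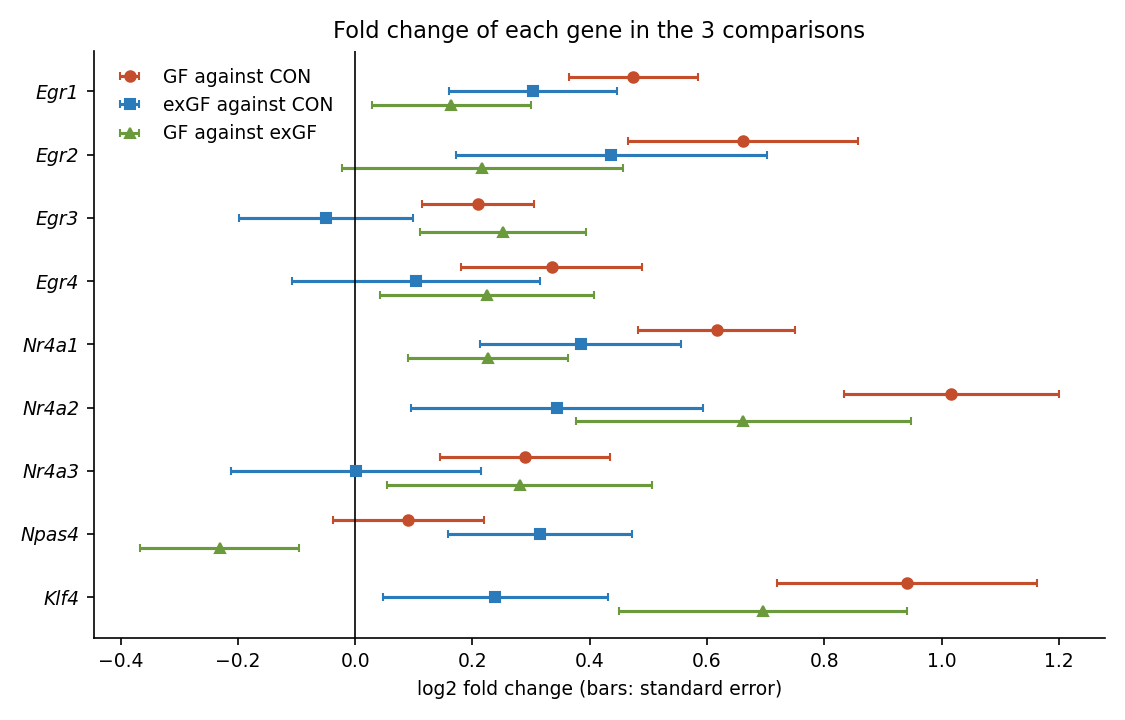
Log2 fold change of each gene in GF against CON (circles), exGF against CON (squares) and GF against exGF (triangles), with standard errors. For Nr4a2 and Klf4 the GF against CON value (1.02 and 0.94) lies well to the right of exGF against CON (0.34 and 0.24), and Npas4 is the single gene with a negative GF against exGF value (-0.23).

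Some of the 9 genes varied together across the 12 libraries and others did not. Genes measured in the same library share its group, its pool and its preparation. Over all libraries, the 36 pairs of genes had a median Pearson r of 0.50 (-0.24 to 0.95) for log2 CPM, and 0.36 (-0.79 to 0.90) once each group's mean was taken off. Egr1 and Nr4a1 were the most alike, with r of 0.95 and, within groups, 0.90, followed by Egr1 and Egr2 with 0.88 and 0.82. Npas4 stayed apart from them, with r of 0.28 to Egr1 and 0.25 to Nr4a1, and Egr3 ran against Nr4a2 within groups (-0.79). GFR1 shows this last contrast: it was the lowest of all 12 libraries for Egr3, with 51.6 CPM, and the highest exGF library for Nr4a2, with 20.2 CPM.

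Averaged over the 9 genes, log2 CPM relative to each gene's mean was 0.0095, -0.30, -0.35 and -0.30 in CON replicates 1 to 4 and 0.12, 0.17, 0.39 and 0.41 in GF replicates 1 to 4. In exGF it was -0.19, -0.017, -0.28 and 0.34 in GFR1 to GFR4. In GF replicates 3 and 4 all 9 genes were above their own mean, while CON replicates 2, 3 and 4 had 1 gene each above it. CON replicate 1 and GFR4 stood above the others of their groups, and GF replicate 1 had 4 of 9 genes above their mean.

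**Figure D5:**
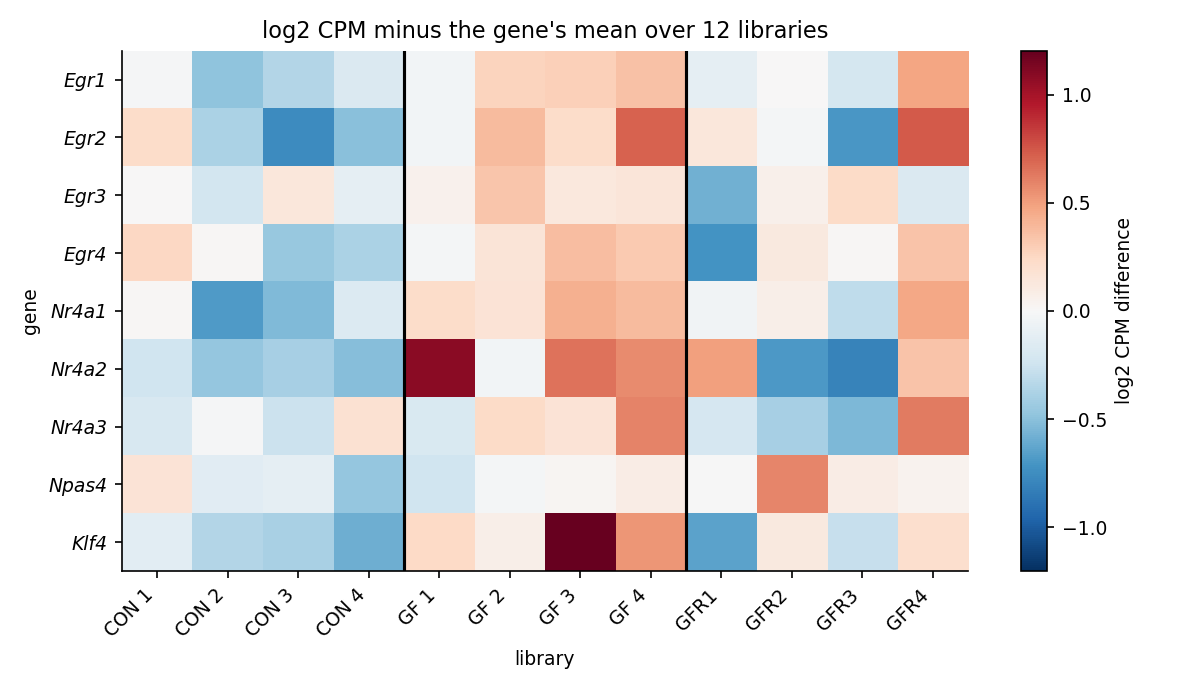
Log2 CPM of each gene minus its mean over the 12 libraries (red higher, blue lower), with black lines between CON, GF and exGF. GF replicates 3 and 4 are above the mean in all 9 rows, GFR4 in 8, and CON replicates 2, 3 and 4 in 1 each.

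Among all other genes that passed the filter over the 12 libraries, those most like the mean of the 9 genes were Spry4 (r = 0.92), Ier5, Neurod2, Rara, Gpr3, Fam53b, Midn, Sik1, Junb and Plk3 (r = 0.88). Of these 10, 5 stand in the list of other activity-induced genes described next, and 1 was among the 10 most alike when group means were taken off. Of the 10 most alike with group means taken off, 0 stand in that list. The 10 genes named above still had r of 0.78 (Sik1) to 0.88 (Neurod2) within groups. For single genes, Nr4a1 was most like Arc (r = 0.97), the gene of a synaptic protein induced by activity, and Egr1 most like Plk3 (r = 0.95). Egr2 was most like Sox8 (r = 0.90), with Dusp5 and Fos next. Nr4a2 was most like Tpgs2 (r = 0.94) and Tsc22d3 (r = 0.90), followed by Mbp, the gene of myelin basic protein (r = 0.88). Klf4 was most like Prr5l (r = 0.91) and Nr4a3 most like 9330162012Rik (r = 0.92). Egr3 (Lingo1, r = 0.88) and Egr4 (Midn, r = 0.87) followed, and Npas4 had the weakest best match, Anxa9 with r = 0.82.

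Other genes of the same response were described by lists. Of 40 other activity-induced genes, 4 passed the test as higher in GF than in CON and 0 as lower, 21 had an unadjusted p under 0.05 as higher, and their median log2 fold change was 0.37. Over all genes the shares were 0.116% for passing as higher and 4.75% for such an unadjusted p. Many of these genes also stand in the list the study drew from these libraries, so the direction is not independent evidence. The genes that passed were Dusp6, a phosphatase that switches off ERK (log2 fold change 0.60, SE 0.093, adjusted p = 0.0168), Ier5, an immediate early gene (0.49, SE 0.083, adjusted p = 0.0277), Tnfaip6, which encodes a hyaluronan-binding protein (1.42, SE 0.26, adjusted p = 0.0397), and Sik1, a kinase that restrains CREB coactivators (0.82, SE 0.15, adjusted p = 0.0426), all by edgeR. In exGF against CON, 0 of the 40 passed, 10 had an unadjusted p under 0.05 as higher (2.46% of all genes), and the median was 0.18. In GF against exGF the numbers were 0, 7 (3.35% of all genes) and 0.17.

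Genes that act before or beside the 9 were counted in the same way. Of 35 genes for glutamate receptors, calcium channels, kinases, calcineurin and the CREB, SRF and MEF2 factors, 0 passed the test in any of the 3 comparisons (edgeR), and their median log2 differences were 0.0021 in GF against CON, 0.031 in exGF against CON and -0.018 in GF against exGF. Those with an unadjusted p under 0.05 in GF against CON, named here after their values were seen, were Ppp3ca, Ppp3cb and Mef2a as higher and Mapk3 and Grin2a as lower. Over the whole table, 1350 of 15542 genes had such a p in either direction, as did 843 of 15813 in exGF against CON and 1035 of 15569 in GF against exGF, and the few genes named from these lists are to be read against those numbers. Mapk3 (ERK1) was the only one with an unadjusted p under 0.05 in exGF against CON, also as lower, and none was in GF against exGF. Of 8 partners and corepressors, 0 passed in any comparison, and in GF against CON, again named after the fact, the corepressor genes Nab1 (log2 difference 0.26, SE 0.12) and Nab2 (0.29, SE 0.096) were higher and Rxrg, a retinoid X receptor gene, was lower (-1.08, SE 0.31) at an unadjusted p under 0.05. Rcor1 (-0.27, SE 0.11) was the one such gene in GF against exGF, and exGF against CON had 0. Of 17 relatives from the Klf, Npas and Wt1 families, 16 could be tested and 0 passed in any comparison, with a median of -0.012 in GF against CON. Klf10 (0.53, SE 0.13, adjusted p = 0.171), Klf2 (0.76, SE 0.28, adjusted p = 0.428) and Klf15 (0.32, SE 0.13, adjusted p = 0.507) had an unadjusted p under 0.05 in that comparison, Klf2 alone did in GF against exGF, and 0 did in exGF against CON.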

How the data were processed

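RNA of the medial PFC was sequenced from 12 pooled samples, 4 per group. Per the study's methods and processing notes, reads were trimmed by Trimmomatic (0.32), aligned by STAR (2.3.1u in the notes) against GRCm38.p3, and read pairs were counted per Ensembl gene by HTSeq-count (0.6.0) on either strand. What the authors deposited are these raw counts, not normalized. Its closing rows name no gene and stayed out of every test: 12.95% to 19.23% of pairs were aligned to several places, 4.574% to 7.315% lay outside genes and 1.104% to 1.316% were ambiguous. Replicates of 1 group differed by 9.263 to 40.22 times the sampling noise (mean chi-square per gene), so no library was counted as a repeat of another. Nothing ties the pools to separate litters or cages, so p-values measure the spread between pools, counting error included, and not that between litters or cages. The SE of a log2 fold change by edgeR is its size divided by the square root of the F value of the quasi-likelihood test.

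Ensembl IDs were named by the GENCODE M21 annotation of GRCm38 (40340 of 41388), which also gave coordinates and exon lengths. Older symbols in 4 places of the lists were matched through RefSeq synonyms. No gene of the 9 overlaps another gene, and at most 2.002% of the words of 31 bases in its transcripts (Klf4) occur in other genes. CPM came from TMM over 12 libraries with log2 values at a prior count of 1, and RPKM divides CPM by exon length. Each pair of groups was tested with edgeR 4.0.16 (R 4.3.3; filterByExpr, TMM, quasi-likelihood test, Benjamini-Hochberg adjustment over all genes tested), as checked on simulated data, with calls made below an adjusted p of 0.1, as in the study's methods. The alternatives tried were upper-quartile and RLE normalization, no filter, at least 10 counts in every library, robust fits, DESeq2 1.42.0, limma-voom (limma 3.58.1), a fit of all 12 libraries, a threshold of 0.05, a replicate block and each library left out. The 9 genes and all lists were chosen with earlier results of these data known. All 9 genes were to be named in each comparison, and of other lists those genes that passed the test.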

Additional observations from a re-analysis of the deposited data

Results flagged for a closer look

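One value stood apart from the others of its group. Npas4 had 37.7 CPM in GFR2, while the other 3 exGF libraries had 24.8 to 26.7 CPM, and the gap was 0.859 of the whole range (above Dixon's 95% critical value for 4 samples). It was the only such value in 27 groups of 4 (9 genes in 3 groups), where chance flags about 1 in 20. Without GFR2 the log2 difference of Npas4 was 0.17 in exGF against CON and -0.07 in GF against exGF, in place of 0.32 and -0.23.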

How the results depend on the processing

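Of the 9 genes, 1 was called in GF against CON. The number was 5 without a filter on low counts, 4 by DESeq2 on the 2 groups (Klf4, Nr4a1, Nr4a2 and Egr1), 2 by DESeq2 on all 12 libraries (Klf4 and Nr4a1), 2 by limma-voom (Nr4a1 and Nr4a2) and 0 by an edgeR fit of all 12 libraries, and 0 to 4 with 1 library left out: 0 without CON replicate 3 or GF replicate 3, 2 without GF replicate 1 or GF replicate 2, and 4 without CON replicate 1. Nr4a2 was called in 14 of 18 alternatives (adjusted p from 9.0802e-05 to 0.191). Of the other activity-induced genes 4 were called; the number was 12 without a filter, 11 and 8 by DESeq2 on 2 groups and on all libraries, 2 by edgeR on all 12 libraries, and 1 to 7 with 1 library left out: 1 without GF replicate 4, 2 without CON replicate 3 and 7 without CON replicate 1. The 39 genes called over the whole table became 221 without a filter and 195 by DESeq2 on 2 groups. In exGF against CON and GF against exGF, 0 of the 9 genes were called under every alternative run. DESeq2 on all libraries gave no adjusted p for 4 genes (Egr2, Egr4, Nr4a2 and Klf4) in GF against exGF.

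With the replicate number as a block, 2 of the 9 genes (Nr4a1 and Nr4a2), 8 of the other activity-induced genes and 51 genes over the whole table were called in GF against CON. Same-numbered CON and GF libraries did not deviate together (r from -0.054 to 0.026), and the libraries did not all correlate best with their own number. With 4 libraries per group, these values cannot show whether same-numbered libraries share more than a number. For exGF, no paired analysis was possible because its columns, GFR1 to GFR4, could not be tied to the numbered samples.

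Signs turned for genes with log2 differences near 0. Npas4 in GF against CON was -0.0083 without CON replicate 4 (up to 0.20 with another library left out). In exGF against CON, Egr3 was 0.014 without CON replicate 3 and 0.095 without GFR1 (down to -0.17 with another left out), and Egr4 was -0.019 without GFR4 (up to 0.29). Nr4a3 in that comparison was -0.00060 by DESeq2 on all libraries, -0.060 by limma-voom, -0.031 without CON replicate 1, -0.060 without CON replicate 3 and -0.31 without GFR4 (up to 0.13). Of the 10 genes most like the 9, 1 was shared when group means were taken off and 5 by Spearman correlation. Except where construction shows it (fewer libraries, more genes tested), the cause of these shifts was not tested.

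Depth was lowest in GF replicate 1, and the rarest of the 9 genes, Klf4, had 100 to 279 counts per library, where counting error adds to the spread between pools; the 2 were not separated for single genes.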
